A study of Mus musculus with 6 samples.

Results

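The transcription factors that set the identity of the gut epithelium were compared between colon samples of HDAC2 KO mice and of control mice. The genes are Cdx1, Cdx2, Hnf4a, Hnf4g, Gata4, Gata6, Klf5 and Creb3l3, and every probe set that the array's annotation gives 1 of these symbols alone was taken. This gave 19 probe sets for 8 genes, out of 45037 probe sets other than array controls and 18193 genes on the array. In 3 HDAC2 KO samples, floxed Hdac2, which encodes a histone deacetylase, had been deleted by a Cre recombinase under the control of villin regulatory sequence, which drives expression in the gut epithelium and not in the other cells of the colon wall. The 3 control samples are given in the labels only as control or normal, without their Cre or floxed status. All animals were untreated, on normal diet and of a background mixed from CD-1, 129 and C57BL/6, and no age is given. The description label of the HDAC2 KO group names both HDAC1 and HDAC2, while title and genotype name HDAC2 alone. The source label speaks of epithelium, the extraction protocol of the colon.

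Intestinal identity is held by a small set of DNA-binding proteins. The caudal homeobox proteins CDX1 and CDX2 keep the hindgut intestinal in character, and the nuclear receptors HNF4A and HNF4G drive enterocyte genes, many of them for lipid handling. GATA4 marks the proximal small intestine and is known to be absent from the colon, whereas its paralog GATA6 is made along the whole gut, also in smooth muscle. KLF5 is a zinc finger protein of crypt cells, and CREB3L3 is a membrane-bound factor of hepatocytes and small-intestinal enterocytes that activates apolipoprotein genes. Cdx1, Cdx2, Hnf4a, Gata6 and Klf5 were treated as regulators of colon and intestine in general, and Gata4, Hnf4g and Creb3l3 as regulators typical of the small intestine.

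Promoter sequences from RefSeq (build GRCm38.p6) were held for 3 of the 8 genes, Cdx2, Hnf4a and Creb3l3. The promoters of Cdx2 and Creb3l3 are shown because these were the genes called, with those of Apoa4 and Krt20, genes linked to HNF4A with CREB3L3 and to CDX2. Each window runs 5′ to 3′ on the gene's strand from 250 bases before to 50 after the start site, and capitals mark every match on either strand to the motifs searched. For the zinc finger proteins of the Gata4 and Gata6 family the motif was AGATAA. For the caudal homeobox proteins it was TTTATNG, where N is any base. For the HNF4 nuclear receptors both CAAAGTTCA and its variant spelling CAAAGTCCA were searched, for factors of the CREB family the core TGACG of the cAMP response element, and for the KLF family the word GGGTGG. No match overlapped another.

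Cdx2, chr5:147307200-147307499, minus strand: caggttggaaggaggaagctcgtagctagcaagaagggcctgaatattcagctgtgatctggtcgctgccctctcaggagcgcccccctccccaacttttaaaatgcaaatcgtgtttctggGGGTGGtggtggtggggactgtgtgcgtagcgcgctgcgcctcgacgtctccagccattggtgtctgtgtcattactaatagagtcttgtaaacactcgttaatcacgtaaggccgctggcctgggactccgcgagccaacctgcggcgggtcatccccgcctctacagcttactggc

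Creb3l3, chr10:81092542-81092841, minus strand: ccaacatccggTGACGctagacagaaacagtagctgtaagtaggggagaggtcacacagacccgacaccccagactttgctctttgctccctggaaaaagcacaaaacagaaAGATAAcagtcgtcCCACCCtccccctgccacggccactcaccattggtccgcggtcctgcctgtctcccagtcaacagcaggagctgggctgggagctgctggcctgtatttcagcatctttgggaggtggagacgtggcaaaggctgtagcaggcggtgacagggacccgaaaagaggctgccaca

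Apoa4, chr9:46240594-46240893, plus strand: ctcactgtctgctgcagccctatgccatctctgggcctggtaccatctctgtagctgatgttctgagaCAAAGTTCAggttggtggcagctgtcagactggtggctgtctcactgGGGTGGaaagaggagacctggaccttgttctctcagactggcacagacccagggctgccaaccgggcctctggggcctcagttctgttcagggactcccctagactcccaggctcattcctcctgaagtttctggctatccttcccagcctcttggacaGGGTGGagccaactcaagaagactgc

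Krt20, chr11:99438104-99438403, minus strand: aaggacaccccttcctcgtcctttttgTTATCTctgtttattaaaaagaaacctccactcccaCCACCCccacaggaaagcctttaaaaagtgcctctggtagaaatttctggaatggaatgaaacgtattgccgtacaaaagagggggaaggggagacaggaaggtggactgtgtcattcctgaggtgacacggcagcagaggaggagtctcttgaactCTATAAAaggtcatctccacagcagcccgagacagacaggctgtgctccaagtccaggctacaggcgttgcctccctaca

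The Cdx2 window held 1 of these motifs, a KLF match starting 128 bases before the start site. The Creb3l3 window shown held a GATA match 138 bases, a KLF match 124 bases and the cAMP response core 239 bases before the start. This window lies inside the annotated gene (chr10:81084329-81098872). The window of a second Creb3l3 start site, chr10:81098823-81099122, covers the 5′ end of the annotated gene and held none of the motifs. In Apoa4 an HNF4 match lay 182 bases upstream, and in Krt20 a CDX match lay 30 bases upstream, a place and spelling shared with a TATA box. Such short words are common. Of all 32851 promoter windows, 11.2% held the GATA motif, 10.9% the CDX motif, 20.8% the cAMP response core and 31.5% the KLF motif, while 0.39% and 0.475% held the first and the second spelling of the HNF4 motif. A match describes the letters and not a bound site. Among the 9 of 10 lipid genes with a window, Apoa4 alone held an HNF4 match, and among the 7 of 11 CDX2-linked genes with a window, 2 (Krt20 and Sis) held a CDX match.

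Values are log2 signals of 1 Affymetrix array per sample, normalized by the authors with RMA, so that a difference of 1 is 1 doubling. Array medians lay between 6.17 and 6.21. Over the genes tested, arrays correlated across genes with r between 0.9964 and 0.9989 within a group and between 0.9907 and 0.9923 across groups. With 3 arrays in each group, precision is limited by their number. The sample titles give a replicate number and no count of mice. Both Xist, expressed from the inactive X chromosome of females, and the Y-linked genes Eif2s3y, Kdm5d and Uty gave signal on all 6 arrays. The main Xist probe set averaged 11.54 ± 0.022 in HDAC2 KO and 12.02 ± 0.023 in control, and Kdm5d 7.63 ± 0.25 in HDAC2 KO and 6.96 ± 0.062 in control (SD, n = 3 each). Xist was lower on every HDAC2 KO array than on any control array. The strongest probe sets of Eif2s3y, Kdm5d and Uty were higher on every HDAC2 KO array. Whether a sample pooled mice of both sexes is not given. As these signals went with group, the part of sex in the results was not tested and cannot be told apart from that of genotype here. The p-values measure the spread between these samples. The strongest Hdac2 probe set read 10.21, 10.12 and 10.24 in HDAC2 KO and 10.40, 10.37 and 10.43 in control, 13.7% lower in HDAC2 KO. Whether it lies in the deleted part of the gene was not analysed. The Hdac1 probe set read 10.47, 10.41 and 10.52 in HDAC2 KO and 10.35, 10.29 and 10.31 in control, without overlap. Its difference was 0.15 (limma adjusted p = 0.0321 over genes and 0.181 over all probe sets). Whether Hdac1 was also deleted was not tested.

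Most of the identity factors differed little. With 1 probe set per gene, that of highest mean, 7 of the 8 genes lay above the filter on low signal (6.66), and 2 of these were called at a limma adjusted p under 0.05, Cdx2 and Creb3l3, both higher in HDAC2 KO. Among all 10916 genes tested 17.9% were called, 9.68% as higher and 8.20% as lower, so 2 calls among 7 genes are near what the array as a whole gave. The groups did not overlap for 4 of the 7, Cdx2, Creb3l3, Gata6 and Klf5, against 37.7% of all genes tested. The median difference over the 7 was 0.044, against 0.0032 over all genes tested. Creb3l3 passed the filter only through its HDAC2 KO level, so it had to differ in order to be tested, and neither the count nor the median supports a statement on the 8 genes.

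**Figure D1:**
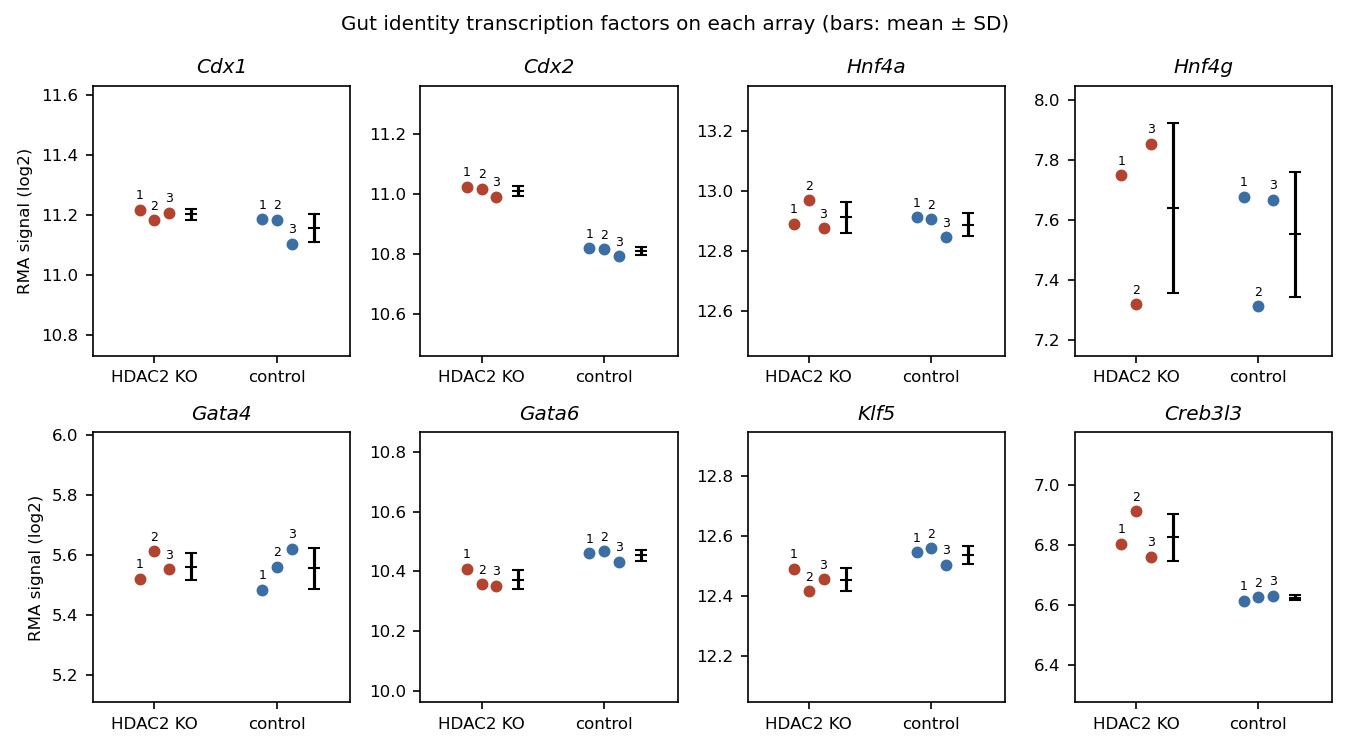
RMA log2 signal of the probe set that stands for each gene on the 3 HDAC2 KO and 3 control arrays (numbers are replicate numbers, bars are mean ± SD); every panel spans 0.9 on the log2 scale. Cdx2 and Creb3l3 lay higher on all HDAC2 KO arrays than on any control array, Gata6 and Klf5 lower, and replicate 2 of both groups was low for Hnf4g.

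Cdx2, the homeobox gene that holds the hindgut to an intestinal fate (annotated at chr5:147300900-147307249), was higher in HDAC2 KO. Its stronger probe set, 1422075_at, read 11.02, 11.02 and 10.99 in HDAC2 KO, against 10.82, 10.82 and 10.79 in control. The HDAC2 KO arrays all lay above the control arrays, with a gap several times the spread within either group. Cdx2 rose by 0.20 (SE 0.031, limma adjusted p = 0.0036), which is 1.15-fold. The second probe set, 1422074_at, read 9.17, 9.08 and 9.13 in HDAC2 KO and 9.02, 9.05 and 8.91 in control, again without overlap. Its difference of 0.13 (SE 0.055) was not called over all probe sets (limma adjusted p = 0.289). The call for Cdx2 was kept in 16 of 17 alternative settings and lost in the fit over all 45037 probe sets (limma adjusted p = 0.0545, range over alternatives 0.000318 to 0.0545). Over all probe sets, 1422075_at was also called in 0 of 8 further settings (limma adjusted p = 0.0709 to 0.186, and 0.132 with the replicate block).

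Cdx1, the paralog whose level rises toward the colon, was not called. It read 11.22, 11.18 and 11.21 in HDAC2 KO and 11.18, 11.18 and 11.10 in control, and the groups overlapped. The difference was 0.044 (95% interval -0.039 to 0.13, limma adjusted p = 0.455). Set against each other within each array, Cdx2 minus Cdx1 was -0.19 ± 0.026 in HDAC2 KO and -0.35 ± 0.033 in control (SD, n = 3 each). This difference between the paralogs had an exact two-sided permutation p = 0.1, the smallest that 3 against 3 samples allow, and 0.15 after adjustment over the 9 such per-array measures computed.

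Creb3l3, the factor of lipid-handling enterocytes and hepatocytes, gave a signal close to the filter level. Its sole probe set read 6.81, 6.91 and 6.76 in HDAC2 KO and 6.61, 6.63 and 6.63 in control. The control arrays lay just under the filter level of 6.66 and within 0.02 of each other, and all HDAC2 KO arrays lay above them. Creb3l3 rose by 0.20 (SE 0.044, limma adjusted p = 0.0162), or 1.15-fold. The call was lost without any 1 control array (limma adjusted p = 0.0673 without control replicate 1, 0.0549 without control replicate 2 and 0.0513 without control replicate 3), without the signal filter (0.0536) and over all probe sets (0.108).

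Gata6, a zinc finger factor of epithelium and smooth muscle, read 10.41, 10.36 and 10.35 in HDAC2 KO and 10.46, 10.47 and 10.43 in control. The groups did not overlap, but the difference of -0.081 (SE 0.033) was not called (limma adjusted p = 0.141). The second probe set read 8.35, 8.38 and 8.25 in HDAC2 KO and 8.44, 8.55 and 8.39 in control, a difference of -0.13 (SE 0.064). The weakest one overlapped between groups at -0.10 (SE 0.082). The 3 probe sets thus had differences of the same sign, and none passed the test over all probe sets (limma adjusted p = 0.376 to 0.626).

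Klf5, which is needed for crypt cell renewal, gave different sizes on its probe sets. The strongest, 1451021_a_at, read 12.49, 12.42 and 12.46 in HDAC2 KO and 12.55, 12.56 and 12.51 in control, a difference of -0.083 (SE 0.036, limma adjusted p = 0.156). The groups did not overlap, by a narrow gap. On 1451739_at the values were 8.78, 8.80 and 8.84 in HDAC2 KO and 9.03, 9.06 and 9.04 in control, where the gap was several times the spread. This probe set was lower by 0.23 in HDAC2 KO (-0.23, SE 0.045, limma adjusted p = 0.0348 over all probe sets), or 1.18-fold. It was not called with replicate number as a block (limma adjusted p = 0.103), nor when any single array was left out (0.0682 to 0.146). The same probe set was the 1 called among the 19, where 3.80% of all probe sets were called, 1.72% as higher and 2.08% as lower. Groups did not overlap for 7 of the 19, both probe sets of Cdx2, 2 each of Gata6 and Klf5 and that of Creb3l3, against 23.2% of all probe sets. The third, 1430255_at, lay near the low end of the scale at 3.82 ± 0.048 in HDAC2 KO and 3.78 ± 0.040 in control (SD, n = 3 each).

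Hnf4a, the master nuclear receptor of enterocytes, did not separate the groups on any of 4 probe sets. The strongest read 12.89, 12.97 and 12.88 in HDAC2 KO and 12.91, 12.91 and 12.84 in control. The difference was 0.024 (95% interval -0.067 to 0.12, limma adjusted p = 0.726). The other 3 probe sets gave differences of -0.087, 0.018 and 0.069, with limma adjusted p between 0.571 and 0.922 over all probe sets. The most variable of them, 1427000_at, read 11.61, 11.14 and 11.68 in HDAC2 KO and 11.62, 11.38 and 11.69 in control, with replicate 2 lowest in both groups.

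Hnf4g, its paralog, showed the same low replicate 2. The strongest probe set, 1460127_at, read 7.75, 7.32 and 7.85 in HDAC2 KO and 7.68, 7.31 and 7.67 in control. The 2 low arrays were nearly equal, and the groups overlapped. The difference was 0.089 with a wide interval (95% -0.25 to 0.43, limma adjusted p = 0.729, and 0.221 with the replicate number as a block). A gap of at least 0.2 below both other arrays in each group, with replicate 2 lowest, was present in 27 of the 10916 genes tested. The remaining probe sets lay below the filter level, at 5.92 ± 0.074 and 5.87 ± 0.074 in HDAC2 KO against 5.99 ± 0.025 and 5.90 ± 0.057 in control (SD, n = 3 each). In neither of these was replicate 2 lowest in both groups.

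Gata4, the factor of the proximal small intestine, stayed below the filter on all arrays. Its stronger probe set read 5.52, 5.61 and 5.55 in HDAC2 KO and 5.48, 5.56 and 5.62 in control, with overlap. The second read 4.76, 4.75 and 4.48 in HDAC2 KO and 4.55, 4.59 and 4.71 in control. Over all probe sets their differences were 0.0064 (95% interval -0.12 to 0.14) and 0.046 (-0.16 to 0.25), with limma adjusted p = 0.977 and 0.866. Background correction compresses differences at such low signal, so a small change would not be detectable here.

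**Figure D2:**
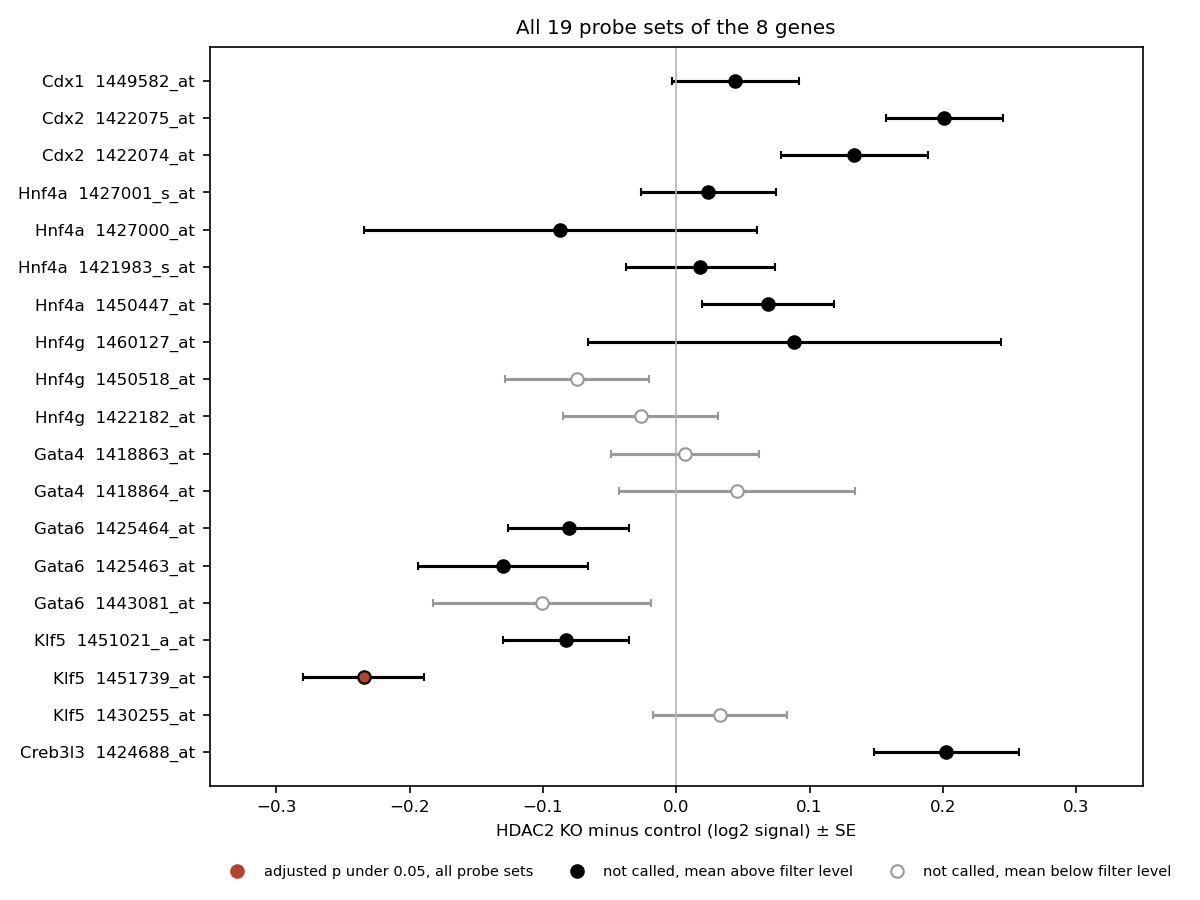
HDAC2 KO minus control difference in log2 signal for each of the 19 probe sets, with the standard error as bars; open points have a mean below the filter level. The 1451739_at probe set of Klf5 was the one called over all probe sets, and both probe sets of Cdx2 lay to the right of 0 and all 3 of Gata6 to the left.

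The averages of the small-intestinal and of the colon or pan-intestinal regulators were compared between HDAC2 KO and control. Averaged per array, the 3 small-intestinal genes read 6.69, 6.62 and 6.72 in HDAC2 KO and 6.59, 6.50 and 6.64 in control. The 5 colon and pan-intestinal genes read 11.61, 11.59 and 11.58 in HDAC2 KO and 11.59, 11.59 and 11.54 in control. HDAC2 KO minus control was 0.099 for the small-intestinal and 0.021 for the colon and pan-intestinal average. Small-intestinal minus colon average was -4.91 ± 0.060 in HDAC2 KO and -4.99 ± 0.095 in control (SD, n = 3 each). Both averages overlapped between the groups, as did their difference within each array. The small-intestinal average includes Gata4, which lay below the filter, and Hnf4g with its low replicate 2. Whether the 2 kinds of regulator part was not tested.

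A colon sample holds several tissues, and fewer cells of a type cannot be told apart from less RNA per cell. Of 10 general epithelial markers, among them Epcam, Cdh1, Krt8 and Krt18, 0 were called by limma at an adjusted p under 0.05 (smallest 0.0557, for Krt18). Their mean level was 12.61, 12.58 and 12.60 in HDAC2 KO and 12.56, 12.57 and 12.55 in control, a difference of 0.036. Cdx2 minus this mean was -1.59 ± 0.023 in HDAC2 KO and -1.75 ± 0.0059 in control (SD, n = 3 each, exact permutation p = 0.1, 0.15 after adjustment). The difference of Cdx2 was thus 0.17 relative to the epithelial markers.

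With every array scaled to these markers, 4 of the 7 genes tested were called, where 22.4% of all genes tested were called (2445 genes, against 1952 as deposited). Gata6 then differed by -0.12 (limma adjusted p = 0.027) and Klf5 by -0.12 (limma adjusted p = 0.0276), beside Cdx2 at 0.17 (0.00655) and Creb3l3 at 0.17 (0.0423). The median of all genes shifted to -0.033 in that setting. As the values were deposited, the strongest probe sets of Gata6 and Klf5 were not called.

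**Figure D3:**
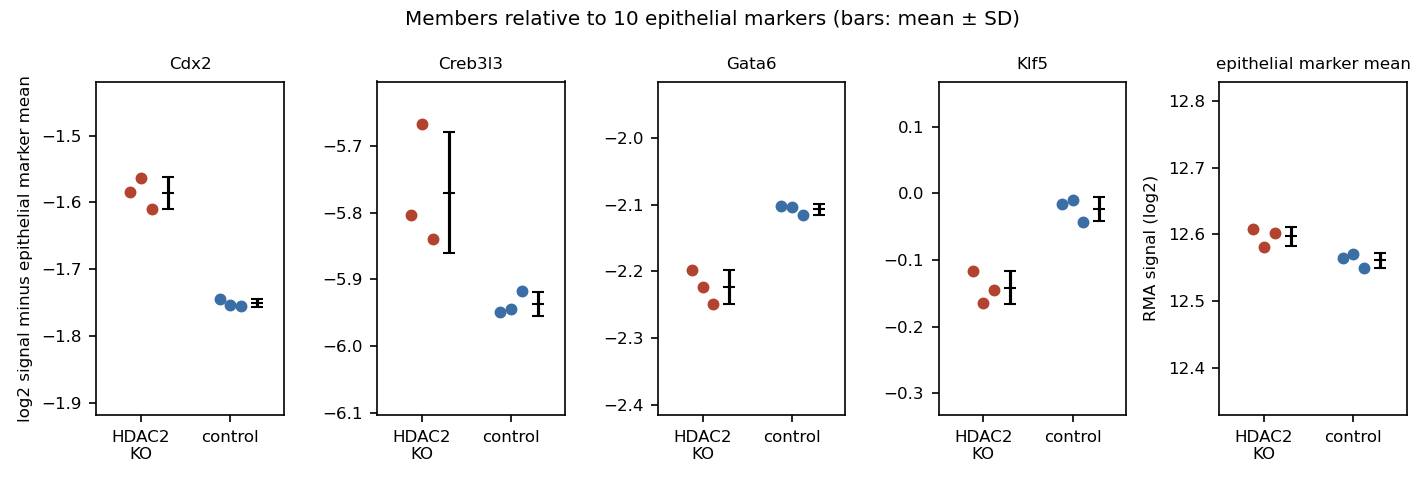
Log2 signal of Cdx2, Creb3l3, Gata6 and Klf5 minus the mean of 10 epithelial markers on the same array, and that mean itself, for HDAC2 KO and control arrays (points are arrays, bars are mean ± SD); every panel spans 0.5 on the log2 scale. The groups did not overlap in any panel, and the marker mean differed by 0.036.

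Several markers of other tissues differed by more, where 9.68% of all genes tested were called as higher and 8.20% as lower. All 7 smooth muscle markers had differences above 0, and 3 rose (median 0.099, mean level 12.42 to 12.46 in HDAC2 KO and 12.29 to 12.32 in control), led by the contractile genes Cnn1, Actg2 and Des. All 7 tested leukocyte markers fell (mean level of all 8 markers 8.35 to 8.42 in HDAC2 KO and 9.15 to 9.20 in control), as did all 3 tested adipocyte markers (mean level of the 4 on the array 7.17 to 7.24 in HDAC2 KO and 9.05 to 9.10 in control). Of 8 fibroblast and endothelium markers 3 fell, Pecam1, Dcn and Cdh5, and of 3 tested enteric neuron and glia markers 0 were called (smallest limma adjusted p = 0.373, for Uchl1). Of 3 tested markers of hepatocytes and pancreas 2 fell, Ttr (10.66 in HDAC2 KO, 11.33 in control) and Cela1 (12.52 and 12.75). The pancreas gene Prss2 was not called (7.07 and 7.02, limma adjusted p = 0.729). Below the filter, the pancreas gene Cpa1 read 6.01 ± 0.12 in HDAC2 KO and 5.95 ± 0.12 in control, with overlap. The hepatocyte gene Alb read 5.99 ± 0.094 in HDAC2 KO and 6.60 ± 0.15 in control (SD, n = 3 each). Which cells gave the Ttr and Cela1 signal was not tested. The part of tissue makeup in the levels of the 8 genes was not tested beyond the scaling to epithelial markers.

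Among 22 further transcription factors of the gut epithelium that were tested, 5 rose and 1 fell, with a median difference of 0.026. The shares over all genes tested were 9.68% and 8.20%. Isx, an intestinal homeobox gene that represses carotenoid uptake, read 8.69, 8.79 and 8.63 in HDAC2 KO and 8.17, 8.22 and 8.17 in control, without overlap. It rose by 0.52 (SE 0.045, limma adjusted p = 0.000199), or 1.43-fold, a larger difference than for any of the 8 genes. Foxa2, a forkhead factor of endoderm, read 9.98, 9.97 and 9.91 in HDAC2 KO and 10.23, 10.19 and 10.17 in control. It fell by 0.25 on the log2 scale (SE 0.036, limma adjusted p = 0.00261).

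The others that rose were Klf6, a zinc finger factor related to Klf5 (0.20, SE 0.035), and Nr1h4, the bile acid receptor FXR (0.20, SE 0.036). Named after their values were seen, Pparg, a lipid-sensing receptor of colonocytes and fat, rose by 0.35 (SE 0.066) and Vdr, the vitamin D receptor, by 0.12 (SE 0.033, limma adjusted p = 0.0428, and 0.07 with the replicate block). The 16 not called included Foxa1, Klf4, Sox9, Elf3, Tcf7l2 and Nr5a2. Below the filter, Prdm1 read 6.45 ± 0.10 in HDAC2 KO and 6.17 ± 0.055 in control, Pdx1 5.60 ± 0.092 in HDAC2 KO and 5.84 ± 0.084 in control, and Sox2, a foregut factor, 3.64 ± 0.028 in HDAC2 KO and 3.57 ± 0.066 in control (SD, n = 3 each). Gata5 and Onecut2 also lay below it.

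Several genes known to lie downstream of these factors differed by more than the factors did. The lists were drawn up with earlier results of these data known, so their directions are a description. Over all genes tested, 9.68% were called as higher and 8.20% as lower. Of 10 lipid genes linked to HNF4A and CREB3L3, 5 were tested, of which 3 rose (Apoa4, Apoa1 and Apoc2) and 1 fell (Apob), with a median of 0.77. Apoa4, the chylomicron apolipoprotein whose promoter is shown above with its HNF4 motif, read 9.73, 9.59 and 9.83 in HDAC2 KO and 7.67, 7.43 and 7.54 in control. All HDAC2 KO arrays lay far above the control arrays (difference 2.17, SE 0.076, limma adjusted p = 1.05e-06), against 0.20 for Creb3l3.

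Apoc2, the cofactor of lipoprotein lipase, rose by 0.77 (SE 0.043), while Apob, the structural protein of chylomicrons, fell by 0.20 (SE 0.038, limma adjusted p = 0.00908). Cideb, a lipid droplet protein, differed by -0.095 (SE 0.035, limma adjusted p = 0.101). Fabp1, the liver-type fatty acid binding protein, averaged 7.40 ± 0.12 in HDAC2 KO and 5.30 ± 0.097 in control, and Apoc3 6.88 ± 0.19 in HDAC2 KO and 5.52 ± 0.18 in control (SD, n = 3 each). The groups did not overlap for either gene. Both lay above the filter level of 6.66 in HDAC2 KO and below it in control. They were not tested because their mean over all arrays lay below it. In contrast Mttp, which loads lipid onto APOB, read 6.27 ± 0.045 in HDAC2 KO and 6.19 ± 0.032 in control. Fgf21 and Apoa5 were below the filter too, with overlapping groups.

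Of 9 tested genes linked to CDX2, 3 rose and 0 fell, against 9.68% and 8.20% of all genes tested, with a median of 0.12. Krt20, a keratin of surface cells, read 12.89, 12.88 and 12.87 in HDAC2 KO and 12.44, 12.34 and 12.40 in control, a rise of 0.48 (SE 0.037, limma adjusted p = 9.11e-05). Car1, a colonic carbonic anhydrase, rose by 0.46 (SE 0.035), and Abcb1a, an efflux pump of the apical membrane, by 0.28 (SE 0.038). The next smallest p was that of Vil1, the gene whose promoter drives the Cre, at 0.12 (SE 0.037, limma adjusted p = 0.0648). Lct, which encodes the small-intestinal lactase, stayed below the filter at 5.76 ± 0.28 in HDAC2 KO and 4.51 ± 0.34 in control (SD, n = 3 each).

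Of 10 regional genes of the small intestine linked to GATA4, 4 were tested and 2 rose, against 9.68% of all genes tested. The list holds ileal genes beside others, so this count gives no direction for GATA4. Fabp2, the intestinal fatty acid binding protein, rose by 0.85 (SE 0.033), and Slc51b, a subunit of the basolateral bile acid exporter, by 0.36 (SE 0.041). Fabp6, the ileal bile acid binding protein, differed by -0.16 (SE 0.071, limma adjusted p = 0.16), and the iron exporter gene Slc40a1 by -0.11 (SE 0.040, limma adjusted p = 0.0971). The ileal genes Slc10a2 and Fgf15 lay below the filter, at 4.35 ± 0.13 and 4.55 ± 0.095 in HDAC2 KO against 4.36 ± 0.20 and 4.53 ± 0.023 in control (SD, n = 3 each). Slc51a read 5.90 ± 0.20 in HDAC2 KO and 5.40 ± 0.035 in control (SD, n = 3 each), and Cybrd1 6.06 in both groups.

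Of 10 genes of the colon surface epithelium 5 rose and 0 fell, against 9.68% and 8.20% of all genes tested, with a median of 0.12. Besides Car1 these were Tmigd1 (0.75, SE 0.034), the membrane protein gene Emp1 (1.22, SE 0.12) and the water channel gene Aqp8 (0.17, SE 0.032). The fifth, named after its values were seen, was the sodium channel subunit gene Scnn1g (0.14, SE 0.037). Both colonic and small-intestinal absorptive genes were thus among those that rose.

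Of 6 tested cell-cycle and growth genes linked to KLF5, 2 rose and 1 fell, with a median of -0.014. The shares over all genes tested were 9.68% and 8.20%. Myc fell by 0.23 on the log2 scale (SE 0.049, limma adjusted p = 0.0154), while the mitotic genes Birc5 and Cdk1 rose by 0.15 (SE 0.038) and 0.17 (SE 0.045). Both of these calls were lost with the replicate block (limma adjusted p = 0.0531 for Birc5 and 0.0603 for Cdk1). Egfr, the epidermal growth factor receptor gene, differed by -0.12 (SE 0.043, limma adjusted p = 0.0914).

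**Figure D4:**
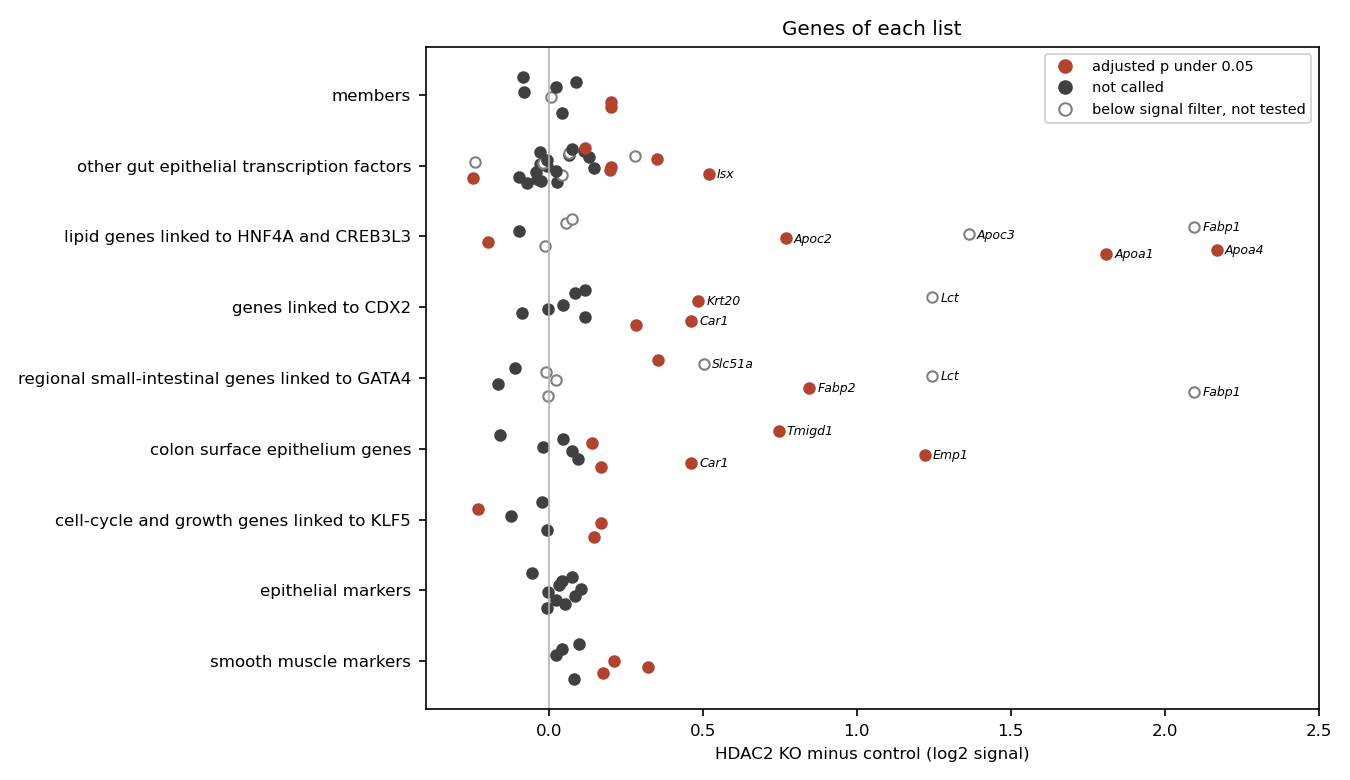
HDAC2 KO minus control difference in log2 signal (x axis) for the genes of each list, 1 point per gene, spread vertically only to separate them; filled red points were called, dark points were not, and open points lay below the signal filter. The 8 factors, each by the probe set that stands for it, stayed within 0.21 of 0. Apoa4, Apoa1 and Emp1 reached differences above 1. So did Fabp1, Apoc3 and Lct, whose mean over all arrays lay below the filter.

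The genes whose profile over the 6 arrays lay closest to each factor were found by the root mean square difference after subtracting each gene's own mean. Closest to Cdx2 were Fdps, an enzyme of isoprenoid synthesis, at 0.011, and Specc1l at 0.012. Closest to Creb3l3 were the metallothionein gene Mt3 at 0.019 and the condensin gene Ncaph at 0.022. For Klf5 they were Fastkd5 (0.0057) and the matrix gene Postn (0.0095), and for Gata6 Taf1c (0.0074) and Ppfibp2 (0.0095). Cdx1 lay closest to Plpbp and Ccnyl1 (both 0.0067) and Hnf4a to Nelfb (0.0063) and Ankrd27 (0.0091). For Hnf4g the nearest were Fgd4 and Rad21 (both 0.046). This distance is not scaled to a gene's own spread, so its size cannot be compared between factors. Hnf4g had the widest spread of the factors (SD 0.28 in HDAC2 KO and 0.21 in control, n = 3 each).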

How the data were processed

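Total RNA of 6 mouse colon samples, 3 of HDAC2 KO and 3 of control, was labelled with biotin and hybridised to Affymetrix arrays, 1 sample each. The deposited values are log2 signals that the authors made with RMA (version not given), per the submitters' processing notes; the log2 scale was read from the values (2.39 to 14.6). RMA gives the probe intensities of all arrays the same distribution before it summarises them, which hides any change in total RNA. It also shrinks differences of dim probe sets. Hybridisation batches were not tested, since no scan data were used here.

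Gene names are those of the platform's annotation (2016), in which 34945 probe sets had 1 symbol, 932 several and 9160 none listed, and 64 were array controls. Of the first, 34741 matched RefSeq (GRCm38.p6) by Entrez identifier and 0 symbols changed. The probe set of highest mean stood for a gene, and genes below the 40th percentile (6.66) were not tested. The test was limma's (version 3.58.1 in R 4.3.3, lmFit and eBayes, group as the 1 factor). P-values were adjusted by Benjamini-Hochberg across the 10916 genes and, in a fit of its own, across the 45037 probe sets. The fit was tested on simulated data. Single values had exact two-sided permutation tests.

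The 8 genes and all lists were chosen with earlier results of these data known. Named are the 8 genes, in each list the 4 tested genes of smallest p with untested genes by level, and for each tested member the 2 genes of nearest profile. Of all list genes 10 had no probe set with that symbol alone.

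Labels number the samples 1 to 3 in both groups. Deviations from group means correlated at 0.212, 0.336 and 0.201 between same-numbered arrays and at -0.367 to 0.183 between others. No label states what a number marks, so the pairing rests on these correlations; the number entered only an alternative fit, as a block. Other alternatives changed the filter, probe set choice, normalization, variance model, weights and arrays.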

Additional observations from a re-analysis of the deposited data

How the results depend on the processing

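Of the 8 genes, 2 were called as the values were deposited. The number was 1 without a signal filter, 1 with the filter at the 60th percentile (where Creb3l3 was not tested), 1 over all probe sets one by one (Klf5), 4 with arrays scaled to epithelial markers, and 1 to 2 when single arrays were left out. Of the 19 probe sets 1 was called, and 0 with the replicate number as a block or without any single array (range 0 to 0); limma gave 4 an unadjusted p under 0.05. Over all genes 1952 were called, 3506 with array weights and 1130 to 2107 without single arrays. With 1 probe set per gene, the replicate block ended the calls of Vdr, Birc5 and Cdk1 among the list genes. In that fit it changed no other call of the 8 genes or of the lists.

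The sign of differences that were never called turned in some settings. Hnf4a was at -0.087 without probe sets named _s_at, _x_at or _a_at, -0.012 with epithelial scaling and -0.0067 with array weights. It was at -0.0047 to 0.042 when single arrays were left out, the lowest without HDAC2 KO replicate 2. Hnf4g was at -0.0041 with the mean of its probe sets, -0.031 to 0.25 when single arrays were left out, turning negative without HDAC2 KO replicate 3 (-0.018) or control replicate 2 (-0.031). Klf5 was called at -0.23 without probe sets named _s_at, _x_at or _a_at, where 1451739_at stands for it, and with an intensity trend (limma adjusted p = 0.0397). The cause was not tested. Cdx1, Cdx2, Gata6, Klf5 and Creb3l3 kept their sign in all alternatives run.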
